A study of Mus musculus with 5 samples.

Results

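Genes of the epicardium and of mesothelium were followed in neonatal mouse hearts with and without the long noncoding RNA Charme. The 8 genes, Upk1b, Upk3b, Msln, Lrrn4, Wt1, Tbx18, Bnc1 and Aldh1a2, were chosen as known markers of these cells, by symbol, from the 49671 genes of the deposited count table. All 8 were among the 14880 genes with enough counts to be tested. Keratins, which epicardial cells also make, were kept apart because they rose with salivary gland transcripts in one of the pools.

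PolyA RNA was sequenced from pooled hearts of C57BL6/J littermates at postnatal day 2. The wild-type group, Charme WT, had 3 pools of 9 hearts each, and the knockout group, Charme KO, had 2 pools of 3 hearts each, from mice in which a polyA signal was inserted in the Charme locus. Genotype and number of hearts per pool cannot be told apart. Pools hold several animals each, so the spread given here is between pools and not between hearts.

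The epicardium is the sheet of mesothelial cells that covers the heart, and it resembles the linings of the pericardial, pleural and peritoneal cavities. In the embryo some of its cells undergo epithelial to mesenchymal transition and give rise to fibroblasts and mural cells, and it sends retinoic acid to the myocardium. After birth it becomes a thin and mostly quiescent layer. The genes fall into those for proteins of the mesothelial cell surface and those for regulators: Wt1, Tbx18 and Bnc1 encode transcription factors, and Aldh1a2 encodes the enzyme that makes retinoic acid from retinaldehyde. Wt1, Tbx18 and Aldh1a2 are also transcribed in some cells outside the epicardium, among them endothelial, mural and interstitial cells.

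Promoter windows of 300 bases, from 250 bases before to 50 bases after the RefSeq start on GRCm38.p6, were held for 5 of the genes, namely Upk3b, Lrrn4, Bnc1, Tbx18 and Aldh1a2. Shown are Upk3b and Lrrn4, which moved together over the pools, and Aldh1a2, which did not move with them. The windows lie at chr5:136038246-136038545 on the plus strand, chr2:132880813-132881112 on the minus strand and chr9:71215539-71215838 on the plus strand. Each is written from 5′ to 3′ on the strand of its gene, and capitals mark the TEAD-type hexamer GGAATG or its reverse complement.
Upk3b: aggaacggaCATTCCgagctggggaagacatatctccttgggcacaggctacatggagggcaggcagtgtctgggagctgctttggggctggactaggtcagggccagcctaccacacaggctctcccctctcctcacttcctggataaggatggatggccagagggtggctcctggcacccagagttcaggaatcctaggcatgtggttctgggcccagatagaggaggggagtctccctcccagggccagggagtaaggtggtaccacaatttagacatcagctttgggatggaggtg
Lrrn4: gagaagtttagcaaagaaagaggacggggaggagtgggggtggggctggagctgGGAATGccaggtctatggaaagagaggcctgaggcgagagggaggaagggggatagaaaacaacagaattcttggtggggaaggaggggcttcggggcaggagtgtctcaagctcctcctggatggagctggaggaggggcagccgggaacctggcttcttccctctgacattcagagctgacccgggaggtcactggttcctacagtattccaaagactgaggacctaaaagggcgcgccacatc
Aldh1a2: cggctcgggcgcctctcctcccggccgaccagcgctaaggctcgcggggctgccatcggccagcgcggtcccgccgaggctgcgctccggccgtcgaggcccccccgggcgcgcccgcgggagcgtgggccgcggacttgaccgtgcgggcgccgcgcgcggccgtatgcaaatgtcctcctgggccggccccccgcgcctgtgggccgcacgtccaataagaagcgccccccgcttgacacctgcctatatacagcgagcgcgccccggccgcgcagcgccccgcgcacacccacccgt
The hexamer was present 241 bases before the start of Upk3b, on the opposite strand, and 196 bases before the start of Lrrn4. It was in none of the other 3 windows, and 14.7% of all 32851 promoter windows held it on either strand. None of the 5 windows held the WT1-type motifs GCGGGGGCG (2.91% of all windows) or GCGTGGGCG (0.612%), the T-box motif AGGTGTGA (1.28%), the GATA motif AGATAA (11.2%) or TATAAA (13.6%). A match describes letters in the window, and says nothing of binding. The windows differed in base composition: the Upk3b and Lrrn4 windows held 2 and 7 CpG dinucleotides at 58.7% and 58.0% G and C, Tbx18 held 15 at 51.7%, and Aldh1a2 and Bnc1 each held 50, at 78.0% and 83.3%. The median over all windows was 7 CpG dinucleotides and 52.7% G and C.

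The libraries had between 16721055 and 21646378 counts on genes, so 1 count was worth between 0.0448 and 0.0708 CPM (counts scaled to a common library size, with TMM factors). Reads carry no molecular identifiers, so intervals cover counting error only. Charme itself was counted 810, 183 and 276 times in the wild-type pools and 57 and 79 times in the knockout pools, or 39.3, 10.4, 13.96, 4.04 and 3.54 CPM. The groups did not overlap (log2 fold change −2.49, standard error (SE) 0.55, adjusted p = 0.0763 by edgeR's quasi-likelihood test). As the label of heart has it, 8 cardiomyocyte genes were abundant, at a sum of 44045 to 54673 CPM. Salivary gland genes summed to at most 3.79 CPM in the Charme WT pools but to 336 CPM in Charme KO pool 1 and 25155 CPM in pool 2, and adipose genes to between 28.4 and 40.9, 69.6 and 1049 CPM, in each case highest in Charme KO pool 2. Most of the adipose sum in Charme WT was Cidea, and the adipose genes without it, a sum added after the values were seen, gave 5.44, 0.170 and 0.405 CPM in Charme WT and 46.0 and 913 CPM in Charme KO.

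The 4 surface genes had higher levels in the Charme KO group, without overlap, by log2 fold changes of 1.33 to 1.60, and none passed the test. Their levels also differed widely among the Charme WT pools. Tbx18 was at nearly the same level in all 5 pools, and the groups overlapped for Wt1. Aldh1a2 was lower in both Charme KO pools by a log2 fold change of −0.38 and did not pass the test either. A gene was called when its p, adjusted by the Benjamini-Hochberg method over all genes tested, was under 0.1 and its mean FPKM (CPM divided by the gene's exon length in kilobases) was at least 1 in at least 1 genotype.

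By this rule 0 of the 8 genes were called in either direction by the quasi-likelihood test, while 1.53% of all genes tested were called higher and 0.524% lower. Before adjustment, 4 of the 8, the surface genes, had a p under 0.05, as did 2767 of the 14880 genes. The likelihood ratio test called 1 of the 8 higher, Upk1b (adjusted p = 0.0420), and 0 lower, beside 3.92% and 2.35% of all genes. DESeq2 also called Upk1b alone (adjusted p = 0.0246), and called 4.33% of all genes higher. For 4 of the 8 genes the lower Charme KO pool exceeded the highest Charme WT pool, against 17.8% of all genes tested, and for 1, Aldh1a2, both Charme KO pools lay below the lowest Charme WT pool, against 18.2%. The median log2 fold change was 1.33 over the 8 genes and 0.02 over all genes tested. The 8 genes were chosen with earlier results of these data known, so the comparison with all genes is a description only. These 4 surface genes share 1 pattern over the pools, so they are not 4 separate observations. In bulk RNA, a change in the number of cells of a type and a change in RNA per cell cannot be told apart.

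**Figure D1:**
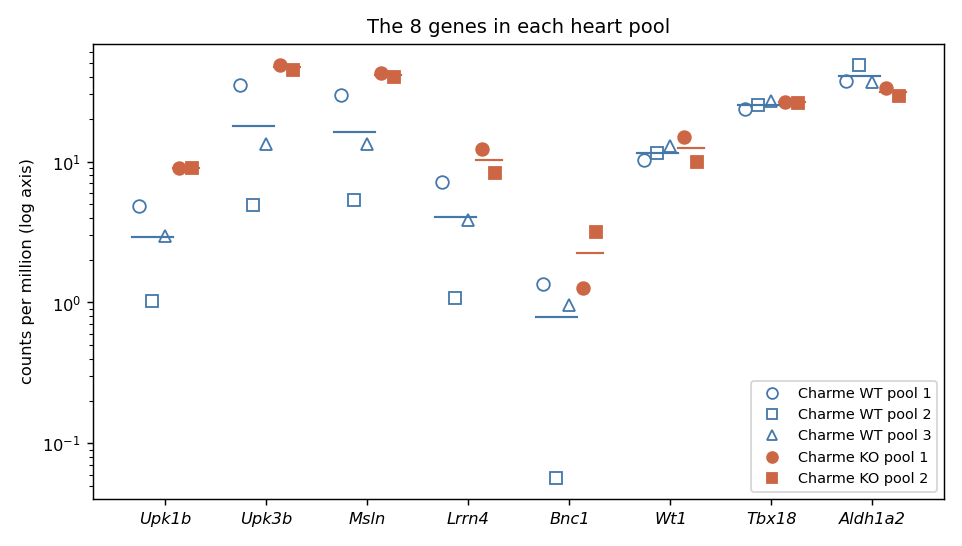
Level of each of the 8 genes in CPM on a log axis, with 1 point per heart pool (open, 3 Charme WT pools; filled, 2 Charme KO pools) and a line at each group's mean. For Upk1b, Upk3b, Msln and Lrrn4 the Charme KO points lie above every Charme WT point and the Charme WT points are spread widely, with pool 2 lowest, whereas the groups overlap for Wt1 and Tbx18 and the points of Tbx18 lie close together.

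Upk1b (chr16:38773184-38800328 on GRCm38, minus strand) encodes uroplakin 1b, a tetraspanin of the urothelial and mesothelial surface. It had 4.81, 1.02 and 2.98 CPM in Charme WT pools 1 to 3 and 9.07 and 9.01 CPM in Charme KO pools 1 and 2. The Charme KO pools were almost equal and the groups did not overlap, although the highest Charme WT pool was 4.72-fold above the lowest. The log2 fold change was 1.60 (SE 0.46, adjusted p = 0.143), the largest and most precisely estimated of the surface genes.

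Upk3b (chr5:136038496-136046487, plus strand) encodes uroplakin 3b, a single-pass membrane protein that is widely used as a mesothelial marker. Its levels were 35.1, 4.92 and 13.3 CPM in the Charme WT pools and 48.7 and 44.3 CPM in the Charme KO pools. Charme WT pool 1 was nearer to the Charme KO pools than to the other Charme WT pools. The log2 fold change was 1.38 (SE 0.56, adjusted p = 0.240). Its paralog Upk3bl had at most 0.0897 CPM in any pool, and Upk2 and Upk3a, which form the urothelial plaque with the other uroplakins, had no count in any pool.

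Msln (chr17:25748613-25754378, minus strand) encodes mesothelin, a protein tethered to the mesothelial membrane by a lipid anchor. It had 29.7, 5.32 and 13.4 CPM in the Charme WT pools and 42.2 and 39.6 CPM in the Charme KO pools, the same order of pools as Upk3b. The groups did not overlap, and the log2 fold change was 1.34 (SE 0.50, adjusted p = 0.214). Muc16, whose product binds mesothelin, had 2.91, 0.566, 1.47, 5.53 and 3.54 CPM in the same pools, with a log2 fold change of 1.41 (SE 0.51, adjusted p = 0.203). The mean FPKM of Muc16 was 0.0626 in Charme WT and 0.172 in Charme KO, so the rule could not have called it at any p.

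Lrrn4 (chr2:132868305-132880891, minus strand) encodes a leucine-rich repeat membrane protein that is enriched in mesothelium. Its levels were 7.19, 1.08 and 3.84 CPM in the Charme WT pools and 12.3 and 8.29 CPM in the Charme KO pools. The lower Charme KO pool was only a little above Charme WT pool 1. The log2 fold change was 1.33 (SE 0.54, adjusted p = 0.239).

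Wt1 (chr2:105126529-105173616, plus strand) encodes the Wilms tumour zinc finger factor, which marks the epicardium from its formation. It had 10.2, 11.4 and 12.9 CPM in the Charme WT pools and 14.8 and 9.996 CPM in the Charme KO pools. The Charme KO pools bracketed all the Charme WT pools. The log2 fold change was 0.10 (SE 0.26, adjusted p = 0.861). The transcript antisense to it, Wt1os, named after its values were seen, had at most 0.777 CPM, and counting was strand-specific.

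Tbx18 (chr9:87702800-87731260, minus strand), a T-box factor of the epicardium and the venous pole, was the steadiest of the genes. It had 23.5, 25.2 and 27.0 CPM in the Charme WT pools and 26.4 and 26.1 CPM in the Charme KO pools, which lay between them. Its log2 fold change was 0.06 (SE 0.19, adjusted p = 0.892).

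Bnc1 (chr7:81966672-81992292, minus strand), which encodes the zinc finger factor basonuclin 1, was near the limit of detection. It was counted 28, 1 and 19 times in the wild-type pools and 18 and 71 times in the knockout pools, or 1.36, 0.0566, 0.961, 1.28 and 3.18 CPM. Charme KO pool 1 fell below Charme WT pool 1, so the groups overlapped. Its fold change was 1.502 on the log2 scale (SE 0.67, adjusted p = 0.270). Its mean FPKM was under 1 in both genotypes, so the rule could not have called it at any p.

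Aldh1a2 (chr9:71215789-71296243, plus strand) had 37.3, 48.2 and 36.6 CPM in the Charme WT pools and 33.2 and 29.3 CPM in the Charme KO pools. The groups did not overlap, with Charme KO pool 1 only a little below Charme WT pool 3. On the log2 scale the fold change was −0.38 (SE 0.20, adjusted p = 0.336).

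**Figure D2:**
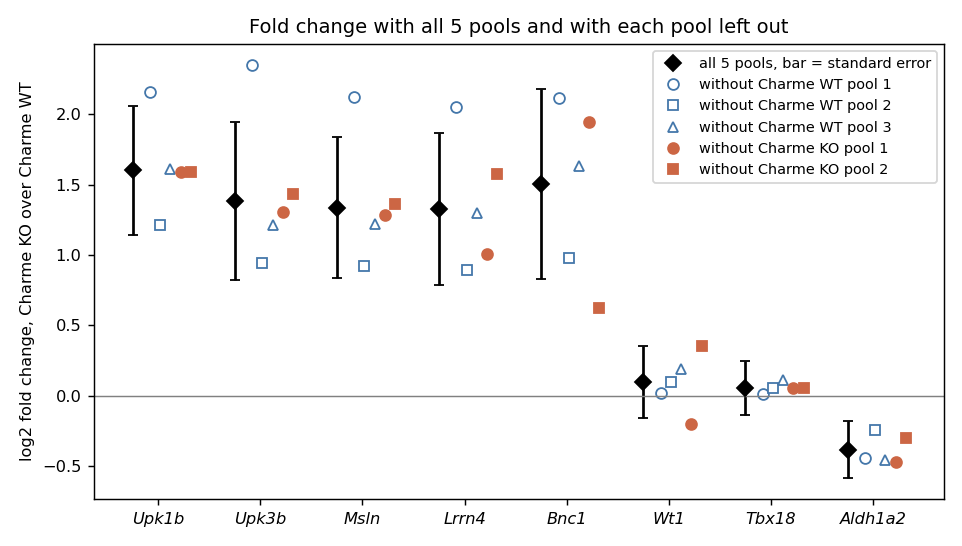
Log2 fold change of each gene, Charme KO over Charme WT, with all 5 pools (black, bar = SE) and after leaving out 1 pool at a time (open, a Charme WT pool; filled, a Charme KO pool). The surface genes stay above 0 throughout but run from 0.89 to 2.35, lowest without Charme WT pool 2 and highest without Charme WT pool 1, whereas Tbx18 stays within 0.01 to 0.11.

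Which Charme WT pool served as the comparison set the size of the difference for the surface genes. The mean of the Charme KO pools was 1.33- to 1.88-fold the level of Charme WT pool 1, 2.68- to 3.51-fold that of pool 3 and 7.69- to 9.59-fold that of pool 2. Without Charme WT pool 2 the log2 fold changes were 1.21 for Upk1b, 0.94 for Upk3b, 0.92 for Msln and 0.89 for Lrrn4, and without Charme WT pool 1 they were 2.16, 2.35, 2.12 and 2.05. None of the 4 genes was called in either of these fits, in which 1.02% of all genes tested were called higher without Charme WT pool 2 and 0.00685% without Charme WT pool 1. In the latter fit, with 1 gene called higher in all, the absence of a call says nothing about the surface genes. Upk1b and Lrrn4 had 18 and 19 counts in Charme WT pool 2, with exact 95% Poisson intervals of 10.7 to 28.4 and 11.4 to 29.7 counts for counting error alone, so the folds against that pool are imprecise. The Charme WT pools stood in the same order, pool 1 above pool 3 above pool 2, for Upk1b, Upk3b, Msln, Lrrn4, Bnc1 and Charme itself. Charme was lower in the Charme KO group, whereas the surface genes were higher. The fibroblast gene Col3a1 had this order too, at 1713, 1425 and 1496 CPM, as did Postn at 1013, 729 and 847 CPM. The share of all genes tested that had this order was not counted.

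The spread of the surface genes within Charme WT was wide beside that of other genes. From the lowest to the highest Charme WT pool, CPM rose 4.72-fold for Upk1b, 5.58-fold for Msln, 6.68-fold for Lrrn4 and 7.12-fold for Upk3b, against a median of 1.29-fold over all genes. Of the 14844 tested genes with a count in every Charme WT pool, 1.54%, 1.08%, 0.707% and 0.640% had a wider spread than these genes, in the same order. The ratio was 1.27 for Wt1, 1.15 for Tbx18 and 1.32 for Aldh1a2, and 53.8%, 78.7% and 45.8% of genes had a wider one. The corresponding ratios between the Charme KO pools, of which there were only 2, were 1.01 for Upk1b and Tbx18, 1.06 for Msln, 1.10 for Upk3b, 1.13 for Aldh1a2, 1.48 for Wt1 and 1.49 for Lrrn4.

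The surface genes moved together. Msln counts per Upk3b count were 0.846, 1.08 and 1.01 in the Charme WT pools and 0.866 and 0.895 in the Charme KO pools, and Lrrn4 counts per Upk3b count lay between 0.187 and 0.290. Upk1b counts per Upk3b count were 0.137, 0.207 and 0.225 in the Charme WT pools and 0.186 and 0.203 in the Charme KO pools, the widest range of these ratios. The proportions thus varied far less than the sum. Together the 4 genes had 76.7, 12.3 and 33.5 CPM in the Charme WT pools and 112 and 101 CPM in the Charme KO pools. Wt1, Tbx18 and Aldh1a2 together had 71.0, 84.8, 76.6, 74.3 and 65.4 CPM in the same pools, and did not follow them. The first sum per count of the second was 1.08, 0.145 and 0.437 in the Charme WT pools and 1.51 and 1.55 in the Charme KO pools, and the groups did not overlap. Bnc1, also a regulator, was left out of the second sum, and its genes were grouped with their values known. The contrast between the sums is therefore a description only. With 3 pools against 2, no exact two-sided permutation test can give a p below 0.1.

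As a measure of likeness, each gene's log2 CPM was centred on its mean over the 5 pools and pairs of genes were compared by the root mean square (RMS) difference, since 5 pools are too few for a correlation. The 6 pairs among the surface genes differed by 0.14 to 0.25, with Upk3b and Msln closest. The 3 pairs among Wt1, Tbx18 and Aldh1a2 differed by 0.18 to 0.31. Every pair across these groups differed by 1.13 or more. Bnc1 lay between 0.72 and 0.76 from each surface gene and between 1.63 and 1.87 from the other 3, so its profile was more like those of the surface genes, with a single count in Charme WT pool 2 behind its lowest point.

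**Figure D3:**
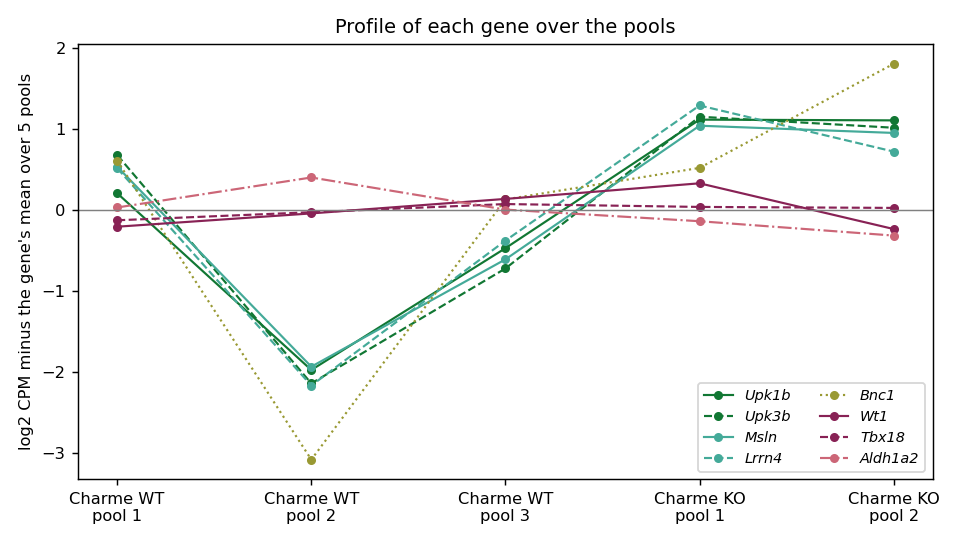
Log2 CPM of each gene minus its own mean over the 5 pools; the lines only tie the points of a gene together, since pools have no order. Upk1b, Upk3b, Msln and Lrrn4 overlie one another, lowest in Charme WT pool 2 and highest in the Charme KO pools, Bnc1 dips further on a single count, and Wt1, Tbx18 and Aldh1a2 stay between −0.31 and 0.40.

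Compared per length, the order of the genes was not the same in both genotypes. In Charme WT, Aldh1a2 was highest at 18.0 ± 2.88 FPKM (SD, n = 3), followed by Tbx18 at 5.35 ± 0.372, Msln at 5.27 ± 4.05 and Upk3b at 5.03 ± 4.41, which did not differ beyond their spread. Wt1 at 1.86 ± 0.222, Upk1b at 1.41 ± 0.907 and Lrrn4 at 1.09 ± 0.824 FPKM came next, also within their spread, and Bnc1 was lowest at 0.171 ± 0.144. Compared pool by pool, Upk1b was above Lrrn4 in every Charme WT pool, at 2.30, 0.488 and 1.43 against 1.93, 0.289 and 1.03 FPKM. In Charme KO, Aldh1a2 at 13.8 ± 1.199 FPKM (SD, n = 2), Msln at 13.3 ± 0.583 and Upk3b at 13.2 ± 0.878 were level within their spread. They stood above Tbx18 at 5.56 ± 0.0330 and Upk1b at 4.33 ± 0.0196. Lrrn4 at 2.78 ± 0.768 and Wt1 at 2.002 ± 0.549 overlapped in spread, and Bnc1 had 0.480 ± 0.290 FPKM. Within each Charme KO pool Lrrn4 was above Wt1, at 3.32 and 2.23 against 2.39 and 1.61 FPKM. Mesothelin and uroplakin 3b transcripts had thus been below Aldh1a2 in every Charme WT pool and were about equal to it in the Charme KO pools.

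Of 12 other epicardial and mesothelial genes, all tested, 0 were called, beside 1.53% of all genes tested called higher and 0.524% lower. Their median log2 fold change was 0.69. In 4 of these both Charme KO pools exceeded the highest Charme WT pool, against 17.8% of all genes tested, and in 0 both lay below the lowest, against 18.2%. The 2 most abundant per length differed in pattern. Tcf21, a factor of epicardium-derived fibroblasts, had 34.0, 35.7 and 45.8 CPM in Charme WT and 33.8 and 46.3 CPM in Charme KO (log2 fold change 0.06, SE 0.22, adjusted p = 0.8998). C3, the complement component that mesothelial cells also make, had 100.04, 9.17 and 37.6 CPM in Charme WT and 70.1 and 118 CPM in Charme KO (log2 fold change 0.94, SE 0.67, adjusted p = 0.463). C3 thus had the order of Charme WT pools seen for the surface genes, and Tcf21 did not.

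The keratins Krt7, Krt8, Krt18 and Krt19 of simple epithelia were all called higher, 4 of 4, beside 1.53% of all genes tested. Their log2 fold changes were 3.61, 5.05, 4.26 and 1.80 (SE 0.71, 0.91, 0.80 and 0.38, adjusted p = 0.0559, 0.0450, 0.0497 and 0.0696). Their sum was 24.9, 13.0 and 11.3 CPM in Charme WT, 46.4 CPM in Charme KO pool 1 and 445 CPM in Charme KO pool 2. The surface genes did not share this gap between the Charme KO pools. Krt19 did not share it either, at 15.9 CPM in Charme KO pool 1 and 22.5 CPM in pool 2. The salivary gland genes Bpifa2, Smgc, Prol1, Dcpp1, Dcpp3, Mucl2 and Lpo and the adipose genes Adipoq, Plin1, Cidec and Ucp1 were also called higher, 7 of the 8 and 4 of the 5 tested in their lists, and both sums were at least as far apart between the Charme KO pools as those of the keratins. Without Charme KO pool 2 the log2 fold changes of Upk1b, Upk3b, Msln and Lrrn4 were 1.59, 1.44, 1.37 and 1.57, and without Charme KO pool 1 they were 1.59, 1.31, 1.28 and 1.01. Upk1b, Msln and Lrrn4 were called in the fit without Charme KO pool 2 (adjusted p = 0.0417, 0.0881 and 0.0610), in which 16.1% of all genes were called higher. Upk1b was called without Charme KO pool 1 (adjusted p = 0.0904), where 3.06% of all genes were called higher. In both fits the lone Charme KO pool was taken to vary like the other pools. The adipose sum without Cidea was also ordered pool 1 above pool 3 above pool 2 in Charme WT, as the surface genes were, and was highest in Charme KO. Its order of Charme WT pools 2 and 3 rested on few counts, with Adipoq at 0 and 4, Plin1 at 3 and 3 and Cidec at 0 and 1. The salivary gland sum had the same order and was also highest in Charme KO, but in Charme WT it was mostly Amy1, at 3.55, 0.340 and 1.06 CPM. Amy1, named after its values were seen, was not called, and at 2.55 and 3.23 CPM in Charme KO the groups overlapped. The part of these other tissues in the surface genes' levels was not tested.

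**Figure D4:**
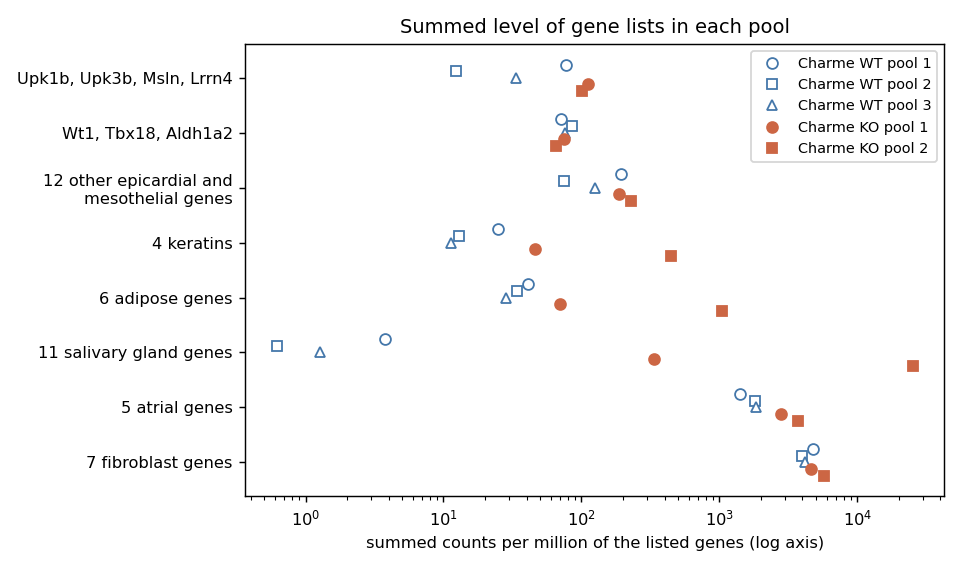
Summed CPM on a log axis of the surface genes, the regulators Wt1, Tbx18 and Aldh1a2, and lists of other genes, with 1 point per pool (open, Charme WT; filled, Charme KO). The Charme KO points of the surface genes lie together at 112 and 101 CPM, while those of the keratin, adipose and salivary gland lists lie far apart, with pool 2 the higher.

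Retinoic acid genes were described from lists by role. Besides Aldh1a2, the list for synthesis held Dhrs3, which returns retinaldehyde to retinol and had the next highest level per length. Dhrs3 was below every Charme WT pool in both Charme KO pools, at 33.02, 27.0, 29.4, 16.7 and 26.7 CPM (log2 fold change −0.45, SE 0.24, adjusted p = 0.337). Of the 5 synthesis genes 0 were called, and the median log2 fold change was −0.10. Over all genes tested 1.53% were called higher and 0.524% lower. The other retinaldehyde dehydrogenases of the list, named after their values were seen, had fold changes in the opposite direction from Aldh1a2, 1.203 on the log2 scale for Aldh1a1 (SE 0.46, adjusted p = 0.218) and 1.06 for Aldh1a3 (SE 0.44, adjusted p = 0.247). For both genes the groups overlapped and Charme KO pool 2 was the highest, at 15.4 and 6.32 CPM against 4.25 and 2.55 CPM in Charme KO pool 1. Of 6 receptor genes 0 were called, with a median of −0.45, and Rxra and Rxrb, with log2 fold changes of −0.83 (SE 0.22, adjusted p = 0.117) and −0.57 (SE 0.20, adjusted p = 0.197), were below every Charme WT pool in both Charme KO pools. This held for 3 of the 6 receptor genes and 2 of the 5 synthesis genes, against 18.2% of all genes tested. Of the 2 Cyp26 enzymes of retinoic acid breakdown that were tested, Cyp26a1 and Cyp26b1, 0 were called.

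No gene was called in the lists for what the epicardium gives rise to. Of 5 transcription factors of epithelial to mesenchymal transition, 7 fibroblast genes and 6 mural cell genes, 0 were called in each, with median log2 fold changes of −0.04, 0.11 and −0.44. Over all genes tested 1.53% were called higher and 0.524% lower, so most lists this short would hold no called gene. The fibroblast genes summed to 4750, 3954 and 4172 CPM in Charme WT and 4617 and 5709 CPM in Charme KO, so that the Charme WT pool low in surface genes was also the lowest in this sum, by a far smaller margin. Genes of other tissues near the heart gave low levels: 9 lung epithelial genes summed to between 1.42 and 4.66 CPM, with Sftpd, Nkx2-1 and Lamp3 at 0 counts in every pool, and 10 thymus and T cell genes summed to between 0.992 and 3.39 CPM, with Foxn1 at 0. The lung sums stood in the same order of Charme WT pools as the surface genes, at 4.66, 1.42 and 2.73 CPM. They were 2.34 and 2.11 CPM in the Charme KO pools. Most of the lung sum in Charme WT came from Ager, at 2.91, 1.13 and 2.58 CPM, and its order of pools 2 and 3 rested on that gene. Sftpc reached 0.971 CPM in Charme WT pool 1 and 0.850 CPM in Charme KO pool 1, and at most 0.101 CPM in the other pools. Endothelial genes, at 5 tested and 0 called, had a median of −0.09.

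Among 11003 protein-coding genes outside the lists with a mean FPKM of at least 1 in a genotype, the 8 whose profiles lay nearest to the mean profile of the 8 genes were Map7d3, Myrf, Mt2, Cyp2s1, Slc39a8, Cd55, Zfp40 and Paxbp1, with RMS differences of 0.11 to 0.25 over the 5 pools. That mean blends unlike patterns, and the RMS of the 8 genes themselves from it ran from 0.39 for Msln to 0.98 for Aldh1a2. Against the mean of Upk1b, Upk3b, Msln and Lrrn4, a choice made after the values were seen, the nearest were Igfbp6, which binds insulin-like growth factors, and Clic3, a chloride intracellular channel gene, at RMS differences of 0.20 and 0.23. Then came Tmem151a, Nap1l5, Gm15446, Apela, Efemp1 and Prss12, at 0.25 to 0.38. Igfbp6 had centred values of 0.54, −2.03 and −0.76 in the Charme WT pools and 0.96 and 1.29 in the Charme KO pools, as low in Charme WT pool 2 as the surface genes were.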

How the data were processed

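PolyA RNA from 3 Charme WT and 2 Charme KO heart pools was sequenced as stranded 150-nucleotide paired reads. The authors trimmed reads with Cutadapt and Trimmomatic, dropped those under 35 nucleotides, mapped the rest with STAR to GRCm38 and deposited its strand-specific raw counts per gene of Ensembl release 87. The deposited FPKM table was not used. Positions and exon lengths came from GENCODE M21 (49411 genes matched, and the 23 tested genes without a length were given 1 kb), and FPKM was computed from counts. Genes reaching 10 counts in 2 or more pools were TMM-normalized and tested with edgeR 4.0.16 (glmQLFit, legacy = FALSE; R 4.3.3, limma 3.58.1) on genotype, the study's settings except for its likelihood ratio test. Fold changes put Charme KO over Charme WT, with the SE taken as log2 fold change divided by the root of F. The script was tested on simulated data. Alternatives were the likelihood ratio test, DESeq2 1.42.0, the legacy quasi-likelihood form, RLE, no count filter, no FPKM rule, an adjusted p under 0.05, a replicate block, a length and GC correction, the salivary list left out and each pool left out. Named were the 8 genes, Charme, the 8 nearest profiles, and called genes and the 2 most abundant per length of other lists, the latter only where a result turned on them. The genes and lists were chosen with earlier results of these data known. Atrial genes, Wt1os, Aldh1a1, Aldh1a3, Amy1, the adipose sum without Cidea and the surface-gene profile were added after seeing the data. So was the fit without adipose and salivary genes. Wt1, Tbx18 and Aldh1a2 were grouped without Bnc1 with the values known. P-values measure the spread between pools. Results of 1 further gene list are not reported here.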

Additional observations from a re-analysis of the deposited data

How the results depend on the processing

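The 8 genes' log2 fold changes were recomputed under 15 alternatives each, 120 values in all. Of these, 112 kept their direction and their side of the adjusted p, 6 kept the direction and passed an adjusted p of 0.1, and 2 changed sign: Tbx18 at −0.0367 with the length and GC correction and Wt1 at −0.20 without Charme KO pool 1, which ran from −0.20 to 0.35 with each pool left out. The number of the 8 called higher was 1 with the likelihood ratio test and 1 with DESeq2, and 0 to 3 with each pool left out, 1 without Charme KO pool 1 (Upk1b, adjusted p = 0.0904) and 3 without pool 2. All other alternatives called 0, and no alternative called any lower. Over the alternatives the adjusted p ran from 0.0246 to 0.518 for Upk1b, 0.106 to 0.590 for Upk3b, 0.0881 to 0.577 for Msln, 0.0610 to 0.582 for Lrrn4 and 0.228 to 0.724 for Aldh1a2. Replicate numbers are shared by the genotypes, but whether pools of the same number share litters is not known. Their deviations correlated at 0.12 for number 1 and 0.07 for number 2. The deviations of the 2 Charme KO pools mirror each other, so these values cannot settle it. With the replicate block 0 of the 8 were called and 210 genes in all, against 305 without it, and the log2 fold changes were 1.85 for Upk1b and −0.45 for Aldh1a2. Over all genes the calls were 933 with the likelihood ratio test, 1122 with DESeq2, 35 with the block and the length and GC correction, and 0 to 4607 with each pool left out (2 without Charme WT pool 1, 187 without pool 2, 0 without pool 3, 639 without Charme KO pool 1, 4607 without pool 2). The 0 calls without Charme WT pool 3 came with 1315 genes at an unadjusted p under 0.05. Leaving out salivary, or adipose and salivary, genes moved no log2 fold change of the 8 by more than 0.00992. These fits drop the listed genes but keep every count of the 8, so they do not measure what other tissues add to the 8. The deposited FPKM table was not run as the source of the FPKM rule. The cause of these changes was not tested. Depth limits Bnc1 most, with 1 count in Charme WT pool 2, and also Upk1b and Lrrn4, with 18 and 19 counts there.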

Other observations

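Genes of the atrial myocardium, a list added after the values were seen, lay higher in the Charme KO group without overlap, 5 of 5, beside 17.8% of all genes tested. They summed to 1406, 1815 and 1829 CPM in the Charme WT pools and to 2777 and 3725 CPM in the Charme KO pools. Of these genes 2 were called higher by the quasi-likelihood test, beside 1.53% of all genes tested. They were Myl4, the atrial essential light chain, with a log2 fold change of 1.21 (SE 0.18, adjusted p = 0.0343), and Bmp10, a secreted factor of the atrial wall, with 1.10 (SE 0.25, adjusted p = 0.0821). Myl7, Sln and Nppa had log2 fold changes of 0.87, 0.93 and 0.82 and were not called. Nppa is not a gene of atria alone, since the study used NPPA protein to mark trabecular cardiomyocytes of the embryo. It reported less NPPA in fetal Charme KO hearts, at another stage and as protein rather than RNA. Charme WT pool 1 was the lowest for this sum and for Myl4, Nppa and Bmp10, whereas Charme WT pool 2, the pool lowest in the surface genes, was the lowest for Myl7 and Sln. The share of atrial tissue in a pool was not tested.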
